A study of Mus musculus with 4 samples.

Results

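The genes described here are 10 members of the AP-1 group, namely Jun, Junb, Jund, Fos, Fosb, Fosl1, Fosl2, Atf3, Jdp2 and Batf, out of 21887 protein-coding genes on the placed chromosomes. They were chosen by name, and every deposited MafG peak whose midpoint lay inside such a gene or within 50 kb of it was taken. That gave 52 distinct peaks of the 68763 in the list. The study precipitated chromatin from C57BL6/J mouse liver with an antibody against the BLRP (Avi) tag and sequenced it, in 2 libraries labelled Ad BLRP MAFG and 2 labelled Ad BLRP Control. Both groups carry the tag, and only the first carries it on MafG. The tagged MafG was overexpressed in every library that has it, so native occupancy was not measured. The labels give no age, time point or number of animals. The peaks form 1 list called over the control, without values of single libraries. Differences between animals were therefore not testable, and SDs are not given. The list rests on 20406492 BLRP-MafG tags and an implied 1.72e+07 control tags. Liver identity could not be checked on markers, since the file holds no expression values.

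AP-1 is a family of dimers built from basic leucine zipper (bZIP) proteins. JUN proteins pair with each other or with FOS proteins, whereas FOS proteins need a JUN partner, and the dimers bind the TPA response element TGAGTCA or, with ATF partners, the cyclic AMP response element TGACGTCA. MafG is a small MAF protein of the same bZIP class that lacks a transactivation domain. Its recognition element (MARE) has an AP-1 or CRE core flanked by further bases, among them GC on either side of the core. Jun and Fos are immediate-early genes, which switch on quickly after a stimulus, and in liver they are known for their induction during regeneration and stress.

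No genome sequence was used, so sequence could be read only where a peak ran into a promoter window of the RefSeq table (250 bases before to 50 after a start site, build GRCm38.p6, the assembly of mm10). The 52 peaks met such a window at 4 places, all of them windows of neighbouring genes and none of an AP-1 gene. The stretches below are the readable peak DNA in which a motif was matched. Those at the coding genes Rnaseh2a and Trir are cut before a start site. Capitals mark a match to the motif named after them.
Jdp2 upstream peak, chr12:85569762-85569873, + strand: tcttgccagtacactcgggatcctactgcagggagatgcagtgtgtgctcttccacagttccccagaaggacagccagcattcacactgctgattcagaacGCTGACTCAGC
Junb downstream peak, chr8:84966077-84966120, - strand: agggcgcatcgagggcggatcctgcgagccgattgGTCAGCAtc
Junb distal upstream peak, chr8:85026679-85026810, + strand: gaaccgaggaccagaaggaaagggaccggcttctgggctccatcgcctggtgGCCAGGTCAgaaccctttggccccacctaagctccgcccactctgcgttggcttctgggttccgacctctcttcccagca
The first stretch covers the left side of a tall peak upstream of Jdp2, at the start of the lncRNA gene Gm32348. It ends in GCTGACTCAGC, the AP-1 element on the reverse strand with GC on either side, and this run begins 1 bp past the midpoint of the peak. It also contains a match to TGACNNNGC. The run of 11 letters, on either strand, stands in 15 of 32851 promoter windows (0.0457%). The second stretch, upstream of a start site of Rnaseh2a, holds GTCAGCA, the reverse complement of the MARE arm TGCTGAC, 59 bp from the peak midpoint. The third, upstream of Trir, holds GCCAGGTCA, the reverse complement of the antioxidant response element core TGACNNNGC, 40 bp from its midpoint. These shorter motifs are common, with TGCTGAC in 4.67% and TGACNNNGC in 12.4% of all promoter windows, and a match is a description of the letters, not a measured binding site. The fourth overlap, of 19 bp at Mus81 near Fosl1, held none of the motifs.

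The promoters of the AP-1 genes themselves carried related but different letters. The table holds 11 windows for 9 of the genes, and none for Fosl1. Searched on both strands, the windows held no TGAGTCA (in 5.20% of all windows), no TGACGTCA (1.79%) and no TGACNNNGC (12.4%). TGCTGAC stood in 1 of the 3 Jdp2 windows, 88 bp before that start. Of 2 looser motifs added after the sequences were seen, TGACATCA stood 45 bp before the start of Jun, and the short CRE form TGACGT stood before a start in Fos, Atf3, Batf and Jdp2 (3.62% and 7.51% of all windows). TGACGT is part of TGACGTCA, and TGACNNNGC can overlap TGAGTCA and TGCTGAC. The 120 bases before the start of 4 of these genes are shown, with that match in capitals, because none of the 4 held a listed peak there.
Jun, chr4:95052223-95052342, - strand: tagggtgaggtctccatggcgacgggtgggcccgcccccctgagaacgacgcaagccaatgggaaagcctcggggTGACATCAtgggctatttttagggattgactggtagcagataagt
Fos, chr12:85473770-85473889, + strand: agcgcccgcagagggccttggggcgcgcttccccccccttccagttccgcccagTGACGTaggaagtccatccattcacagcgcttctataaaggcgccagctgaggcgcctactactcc
Atf3, chr1:191183334-191183453, - strand: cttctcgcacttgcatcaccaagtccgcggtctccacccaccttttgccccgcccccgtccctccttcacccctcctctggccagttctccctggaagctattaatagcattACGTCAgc
Batf, chr12:85686600-85686719, + strand: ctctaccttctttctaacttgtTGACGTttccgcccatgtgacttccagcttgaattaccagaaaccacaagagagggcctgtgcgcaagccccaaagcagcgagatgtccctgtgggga
The nearest peak midpoint lay 3979 bp from the start of Jun, 12095 bp from that of Fos, 2377 bp from that of Atf3 and 19181 bp from that of Batf.

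All 10 AP-1 genes had a peak inside or within 50 kb, as did 93.5% of all protein-coding genes, so that count does not set them apart. The number per gene ran from 2 at Fos to 10 at Jund with a median of 5, equal to the median of 5 over all genes (quartiles 3 and 7). Heights are given as the normalized tag count, the BLRP-MafG tags of a peak scaled by the authors to 10000000 tags in total, with an exact 95% Poisson interval that covers counting error only. The median of the highest tag count per gene was 32.6, against 33.8 over all protein-coding genes (quartiles 16.7 and 69.6). Only Jdp2, Batf and Jun reached 50, so 3 of 10 genes, beside 35.4% of all genes, and Jdp2 and Batf did so through 1 shared peak. The median tag count of the 52 peaks was 11.3, against 12.3 over all peaks. Of the 52, 24 (46.2%) stood below 10, against 40.2% of all peaks, and 3 (5.77%) reached 50, against 9.88%. These shares are descriptions; the peaks of 1 gene are not replicates.

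**Figure D1:**
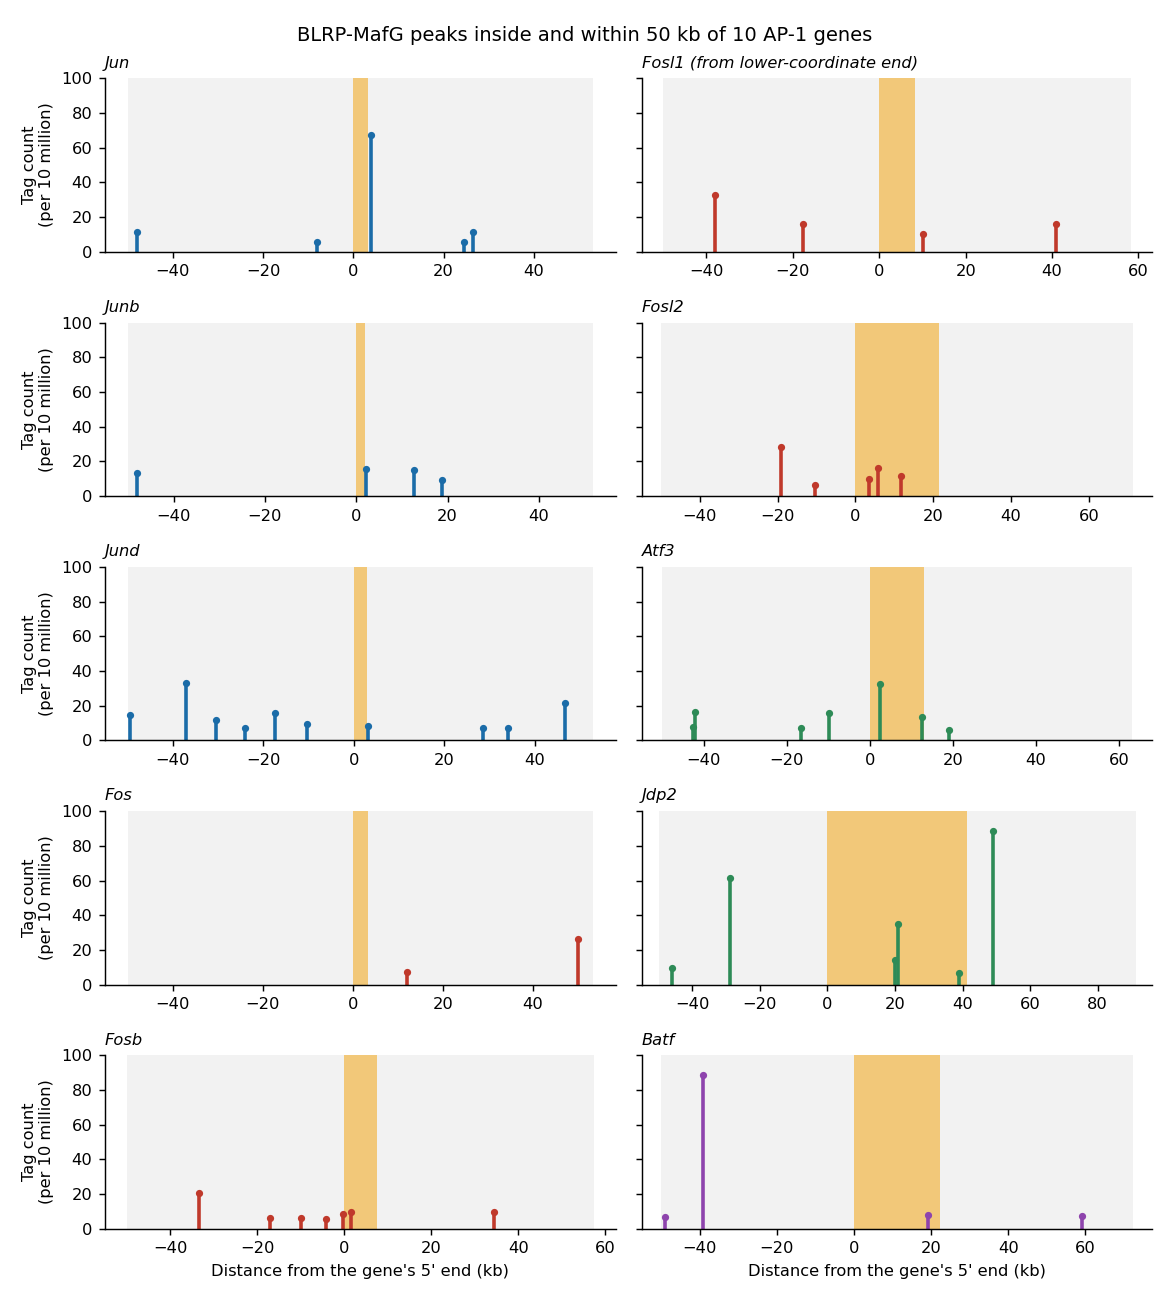
Each panel plots the peaks of 1 AP-1 gene as stems, with distance of the peak midpoint from the 5′ end of the gene in kb on the horizontal axis (for Fosl1, whose strand is not in the promoter table, from the lower-coordinate end) and the normalized tag count per 10000000 tags on the vertical axis. Orange marks the gene and grey the 50 kb on either side; the tallest stems stand at Jdp2 (88.7, drawn again in the panel of Batf) and just past the 3′ end of Jun (67.6).

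Among the Jun genes, Jun had a tall peak within 50 kb and Junb and Jund did not. Jun encodes c-JUN, the founding transactivating partner of AP-1. It had 5 peaks, with tag counts of 67.6, 11.3, 11.3, 5.88 and 5.39, and no other protein-coding gene within its window. The tallest, at chromosome 4:95048143-95048343, lay 793 bp past the 3′ end of the gene and read 67.6 (56.8 to 79.9) with 1 control tag, a ratio to control of 116 (20.5 to 4631, exact conditional binomial interval). The next peaks of the gene, both at 11.3 (7.14 to 16.9), had intervals that lay well below its own. Of the other 4 peaks, 3 had 0 control tags and the last had 1.

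Junb, whose product is a weaker activator that can restrain c-JUN, had 4 low peaks of 15.7, 15.2, 13.2 and 9.31. Their intervals all overlapped. The highest, 15.7 (10.7 to 22.1) at chromosome 8:84976493-84976693, lay 316 bp past the 3′ end of Junb, between it and the peroxiredoxin gene Prdx2. The other 3 lay nearest to another gene, with 2 inside Rnaseh2a and the last 32 bp from Trir. Junb was the member with the lowest top peak and the only one under the lower quartile of all genes.

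Jund, the most steadily expressed Jun gene, had 10 peaks, more than any other member, and they were spread over a window with 5 other protein-coding genes. The peak nearest to the gene was among its low ones, 8.33 (4.85 to 13.3) at chromosome 8:70700822-70701022, 306 bp past the 3′ end and 1 control tag. The tallest, 33.3 (25.9 to 42.2) at chromosome 8:70660554-70660754, lay 37085 bp upstream and only 208 bp from Pgpep1. It held 4 control tags, for a ratio of 14.3 (5.35 to 54.1). The tag counts of the other 8 ran from 6.86 to 21.6. Of the 10 peaks, only the one 306 bp past the 3′ end had Jund as its nearest gene.

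Among the Fos genes no peak within 50 kb reached 33. Within 100 kb the highest was 275 at Fosb, 61.7 at Fos and 50 at Fosl2, while Fosl1 stayed at 32.8. Fos, which encodes c-FOS, had the fewest peaks of the 10 genes, both downstream of it and with no other protein-coding gene in the window. The nearer, 7.35 (4.11 to 12.1), lay 8711 bp past the 3′ end at chromosome 12:85485885-85486085. The higher, 26.5 (19.9 to 34.5), lay 46704 bp past it at chromosome 12:85523878-85524078 with 0 control tags. Counted against a floor of 3 control tags, its ratio was 15.2, and the exact interval began at 11.9. Their intervals did not overlap. No listed peak lay inside Fos or in the 50 kb upstream. Signal too weak for the peak caller would not be listed.

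Fosb, a close relative of c-FOS, was the only member with a peak within 1 kb of its 5′ end. That peak, at chromosome 7:19310326-19310526, lay 308 bp upstream of the gene and read 8.82 (5.23 to 13.9) with 0 control tags. Its ratio was 5.06 by that floor, with an interval from 3.71, and its deposited fold was 30.4, above the 10-fold limit of the calling. A further peak of 9.80 (5.99 to 15.1) lay inside, 1458 bp from the 5′ end. The highest of its 7 peaks, 20.6 (14.8 to 27.8) at chromosome 7:19343474-19343674, stood 33456 bp upstream and 493 bp from the DNA repair gene Ercc1. The other 4 read 9.80, 6.37, 6.37 and 5.88.

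Fosl1 and Fosl2 encode FRA-1 and FRA-2, FOS-like proteins without the C-terminal activation domain of c-FOS. Fosl1 lies in a dense stretch with 11 other protein-coding genes in its window, and all 4 of its peaks lay nearer to another gene. The closest to Fosl1, 10.3 (6.37 to 15.7) at chromosome 19:5457842-5458042, was 2004 bp from its nearer end and 379 bp from Ccdc85b. The highest, 32.8 (25.4 to 41.7) at chromosome 19:5409570-5409770, was 38028 bp away.

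Fosl2, in contrast, had its window to itself and 3 of its 5 peaks inside the gene. These read 9.80, 16.2 and 11.8, at 3407, 5800 and 11681 bp from the 5′ end, with overlapping intervals. The highest, 28.4 (21.6 to 36.7) at chromosome 5:32117129-32117329, lay 19243 bp upstream with 4 control tags, a ratio of 12.2 (4.53 to 46.4). The last, of 6.37 (3.39 to 10.9), lay 10392 bp upstream.

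Atf3, an early stress-response gene whose homodimer represses transcription, had its highest peak inside the gene. It read 32.3 (25 to 41.1) at chromosome 1:191180856-191181056, 2377 bp from the 5′ end, and had 0 control tags. Its ratio was 18.6 by the same floor, with an interval from 14.7, and its deposited fold was 111. A second peak inside, 13.2 (8.72 to 19.3), lay 532 bp short of the 3′ end. The other 5 ran from 5.88 to 16.2, with 4 upstream and the lowest past the 3′ end, inside Fam71a.

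Jdp2 encodes a dimerization partner of JUN that represses AP-1 reporters, and it had the tallest peak of the 52 and also the third tallest. Its 6 peaks read 88.7, 61.7, 34.8, 14.2, 9.80 and 6.86. The tallest, 88.7 (76.2 to 103) at chromosome 12:85647607-85647807, lay 7829 bp past the 3′ end and had 0 control tags. By the same floor its ratio was 50.9, with an interval from 41, and its deposited fold was 305. In tag count this peak was higher than 95.6% of all peaks in the list, yet as the highest peak of a gene it exceeded that of 80.9% of protein-coding genes. The peak of 61.7 (51.4 to 73.5) at chromosome 12:85569762-85569962 is the one whose sequence is shown above. It lay 28794 bp upstream and had the most control tags of all 52 peaks, 6, so its ratio was 17.7 (7.92 to 49.2). Within the gene stood 34.8 (27.2 to 43.9) at chromosome 12:85619595-85619795, with a neighbour of 14.2 less than 1 kb away, and 6.86 lay 2145 bp short of the 3′ end. The intervals of 88.7, 61.7 and 34.8 did not overlap.

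Batf, which encodes a small inhibitory AP-1 partner best known in lymphocytes, lies next to Jdp2 on chromosome 12, and their windows share 2 peaks. One of them is the peak of 88.7, which lay 39013 bp upstream of Batf and much closer to Jdp2. The peaks of its own were low. One of 7.84 (4.48 to 12.7) lay inside at chromosome 12:85705801-85706001, 3186 bp short of the 3′ end, and one of 7.35 (4.11 to 12.1) lay 36769 bp downstream, near Flvcr2. With peaks given only to the nearest gene, the highest of Batf was 7.84.

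**Figure D2:**
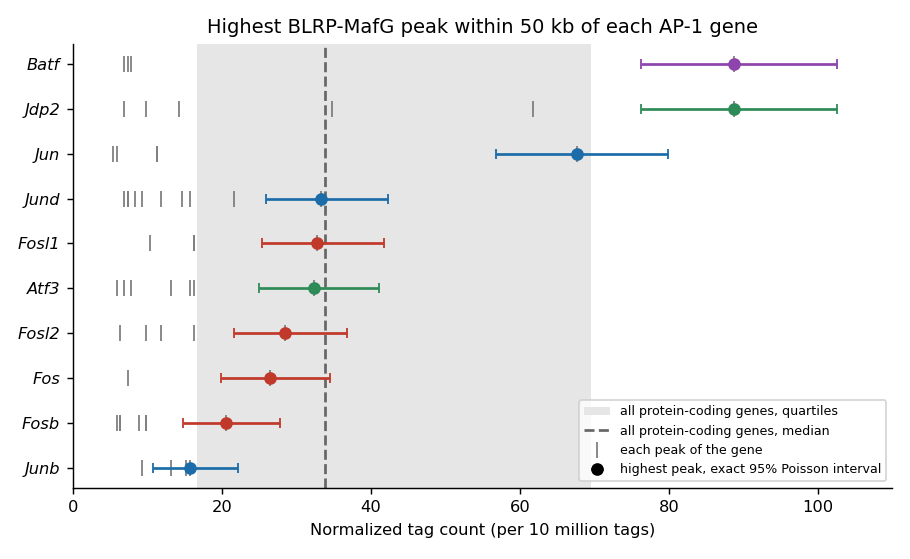
Points show the highest normalized tag count within 50 kb of each AP-1 gene (per 10000000 tags) with its exact 95% Poisson interval, and ticks show every peak of that gene. The dashed line and grey band give the median, 33.8, and quartiles, 16.7 and 69.6, of the same value over all protein-coding genes; Jdp2 and Batf share a single peak above the band, Junb lies below it, and the remaining 7 lie within it.

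Ordered by their highest peak, the genes ran Jdp2 and Batf (88.7, shared), Jun (67.6), Jund (33.3), Fosl1 (32.8), Atf3 (32.3), Fosl2 (28.4), Fos (26.5), Fosb (20.6) and Junb (15.7). The intervals of Jun and Jund were the only neighbouring intervals in that order that did not overlap. From Jund down to Junb all neighbouring intervals overlapped, which does not show that those genes are equal. The ends of that run were separate, at 33.3 (25.9 to 42.2) for Jund and 15.7 (10.7 to 22.1) for Junb. This order belongs to the 50 kb window. Within 10 kb the highest tag count left its interval in 6 genes, among them Jund (8.33) and Fosl1 (10.3), and stayed in 4. Within 100 kb it left its interval in 5 genes, with Fosb at 275 and Junb at 107, and stayed in 5.

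More of these genes had a peak within 1 kb of the 3′ end than within 1 kb of the 5′ end. Strand was known for 9 of the genes. Of these, Jun, Junb, Jund and Atf3 had a peak midpoint within 1 kb of the 3′ end, at 793, 316, 306 and 532 bp, which is 4 of 9 beside 7.52% of 17492 genes of known strand. Only Fosb had one within 1 kb of the 5′ end, 1 of 9 beside 19.7%. In the order Jun, Junb, Jund and Atf3, the tag counts of the 3′ peaks were 67.6, 15.7, 8.33 and 13.2. Their deposited folds over the surrounding 10 kb were 33.3, 5.74, 4 and 9.73, where 4 was the calling limit and the list median was 16.2. The Fosb peak read 8.82, with a fold of 4.55. Among genes of up to 10 kb, the background shares were 7.44% at the 3′ end and 14.8% at the 5′ end. At Jun, Junb and Jund, which are short, the 3′ peak was also the nearest to the 5′ end, at 3979, 2155 and 3183 bp. The nearest peak was closer to the 3′ than to the 5′ end in 7 of 9 genes, beside 41.7%. This way of counting was chosen after the positions were seen, and whether it is particular to these genes was not tested. The peak past Jund also lay near Iqcn, which begins within 1 kb of it.

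**Figure D3:**
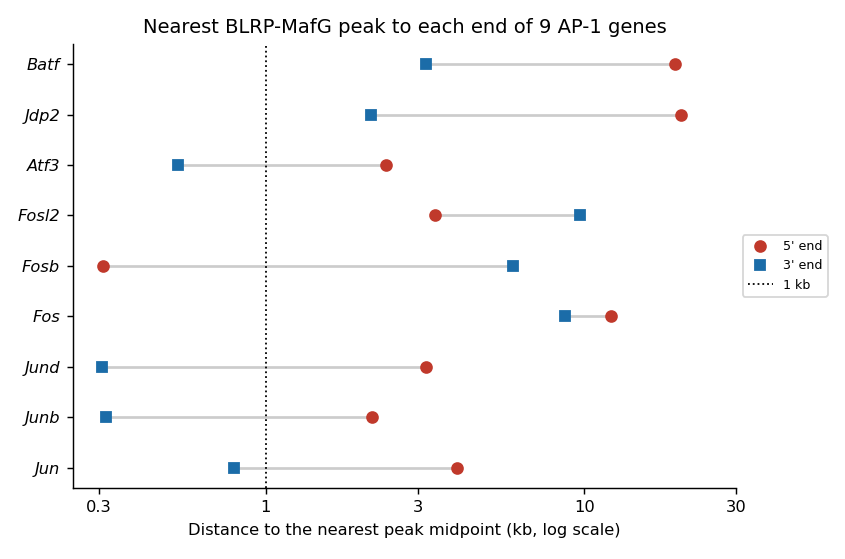
For the 9 AP-1 genes of known strand, the distance in kb (log scale) from the 5′ end (circles) and the 3′ end (squares) to the nearest peak midpoint is plotted, and the dotted line marks 1 kb. The squares of Jun, Junb, Jund and Atf3 and the circle of Fosb lie left of that line.

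By either end, 5 of 10 genes had a peak within 1 kb, beside 24.5% of all genes, and 5 of 10 had a peak inside, beside 50.5%. The genes with a peak inside were Fosb, Fosl2, Atf3, Jdp2 and Batf. Jun, Junb, Jund and Fos, the shortest of the group, had none, and neither did Fosl1. A peak inside or within 10 kb was found at all 10, beside 74.5%. Over all 52 peaks, 10 lay inside a member, and 31 had the member as the nearest protein-coding gene, whereas 21 lay nearer to another gene.

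Control signal was low throughout. It was 0 tags in 14 of the 52 peaks (26.9%), against 44.4% of all peaks, 1 tag in 28 and 2 or more in 10. The median ratio to control was 13.7 with 0 tags set to the floor of 3, against 12.4 over all peaks. The order turns with the treatment of 0 tags: the fold over control in the authors' deposited table, which counts them as 0.5, had a median of 17.7 in the 52 peaks, against 24.2 over all. The lower limit of the ratio exceeded 10 in 5 peaks (9.62%, against 15.2% of all). These were the tallest of Jun, of Fos, of Atf3 and of Jdp2 (shared with Batf), and the peak of 34.8 inside Jdp2. In the authors' deposited table, the fold over the surrounding 10 kb had a median of 7.96 in the 52 peaks, from 4 at Jund to 82.9 at the peak shared by Jdp2 and Batf, against 16.2 over the whole list. Peaks under 10-fold over the control or 4-fold over their surroundings were dropped in calling, so part of these values follows from that filter.

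**Figure D4:**
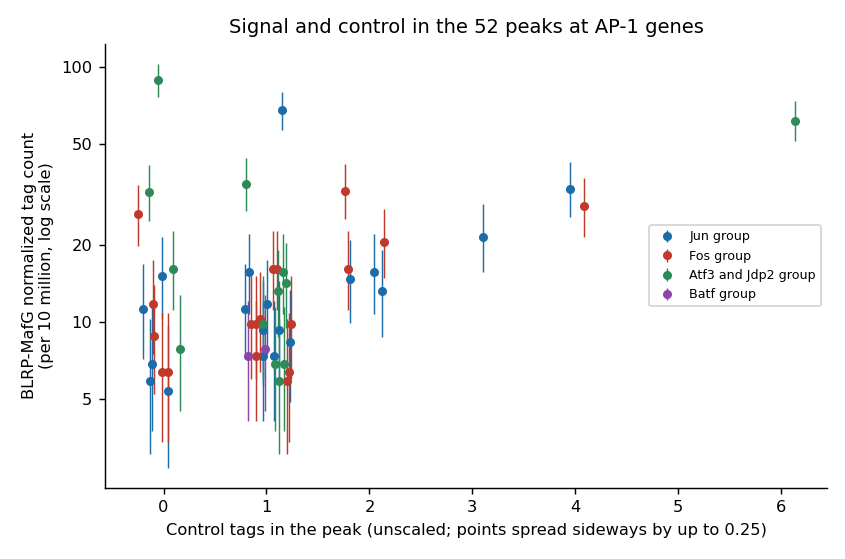
Each point is 1 of the 52 peaks, with unscaled control tags on the horizontal axis and the normalized BLRP-MafG tag count per 10000000 (log scale) on the vertical axis; bars are exact 95% Poisson intervals, and the shared peaks are drawn in the colour of Jdp2. The tallest, 88.7, stands at 0 control tags and the peak of 67.6 at Jun at 1, whereas the peak of 61.7 upstream of Jdp2 stands at 6.

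The limit of 50 kb mattered for some genes. Just inside it lay peaks of 14.7 at Jund (49534 bp), 13.2 at Junb (48031 bp), 11.3 at Jun (47905 bp) and 26.5 at Fos (46704 bp). Just outside it, up to 60 kb, stood a peak of 107 at 56917 bp from Junb, taller than any of the 52, and one of 53.9 at 55453 bp from Jdp2. The other 8 peaks in that band ran from 7.35 to 26.5.

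Other genes of the AP-1 pathway were described in the same way from a list of 31. All had a peak inside or within 50 kb, as did 93.5% of all protein-coding genes. The median highest tag count was 38.2, against 33.8 over all genes, with 12 of 31 genes (38.7%) at 50 or more, beside the 35.4% of all genes. The kinases of the JNK, p38 and ERK routes, which phosphorylate or induce JUN and FOS, had a median of 53.9, with 7 of 10 at 50 or more. Other immediate-early genes had 20.1, with 1 of 12. The serum response group of Srf, Elk1, Elk3 and Elk4 had 23.5, with 1 of 4, namely Elk3 (75.5). Further AP-1 dimer partners had 76.9, with 3 of 5. The highest single peaks within 50 kb of a list gene were those of Batf3 at 243 (222 to 265), the neuronal JNK gene Mapk10 at 140 (124 to 157), Ier3 at 123 (108 to 139), the ERK1 gene Mapk3 at 117 (103 to 133) and Atf2 at 83.3 (71.3 to 96.8). Only the Mapk10 peak lay inside its gene. Those of Batf3 (chromosome 1:191050947-191051147) and Mapk3 (chromosome 7:126809827-126810027) lay close to the 50 kb limit, with other peaks nearer to both genes. The nearest genes to these peaks are not given here. For the small MAF and CNC genes, whose products are the bZIP partners of MafG, the median was 80.9 and 7 of 9 genes reached 50, against 3 of 10 AP-1 genes. That difference was not tested. Windows widen with gene length and were not equalised between lists. Creb5, Bach2 and Mapk10, the longest of the compared genes, had 18, 24 and 14 peaks, whereas no AP-1 gene was longer than 41.2 kb or had more than 10. At Mafg, tags may also come from the overexpressed construct.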

How the data were processed

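ChIP-seq was measured in 4 libraries, and the data used were 1 peak list for the series. The submitters' processing notes name Bowtie2, HOMER and the build mm10, without versions. Per the file headers, peaks of 200 bp were called with HOMER findPeaks on 1 BLRP-MafG tag collection against 1 control collection (10-fold and Poisson p of 1e-06 over input, 4-fold over 10 kb). Whether each collection pooled 2 libraries is not given in the sources used here. The headers also give a false discovery rate of 0.001 with a threshold of 11 tags. The lowest peak at the AP-1 genes, 5.39 at Jun, held 11 tags. The deposited signal is the normalized tag count, and control tags are deposited unscaled, with 0.5 for 0. The deposited fold values are ratios. The deposited p-values are the caller's Poisson p-values, and the deposited score was not used.

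BLRP-MafG depth was 20406492 tags, per the file headers, and the control total implied by the authors' fold values was 1.72e+07. Multiplied back, 100% of tag counts came within 0.11 of whole tags, which gave exact Poisson and conditional binomial 95% intervals (Python 3.11.15, scipy 1.17.1) for counting error only. A ratio against 0 control tags uses a floor of 3 tags.

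Genes came from a RefSeq table of GRCm38.p6, and strand from its promoter table, which covers 17492 of 21887 genes. Exons were not separated. All 10 members and the list genes matched by symbol. For each member, the number of peaks, the highest peak, the peak nearest an end and any peak inside are named; of the pathway list, the 5 highest. Members and lists were chosen with earlier results of these data known. No test was made, because the list has no value per library. Interval and window code was tested on simulated data. Alternatives were windows of 10, 20 and 100 kb, stricter peaks, nearest-gene assignment, overlap in place of midpoints, another control total, 0.5 for 0 tags, and the central 100 bp of promoters.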

Additional observations from a re-analysis of the deposited data

How the results depend on the processing

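Counts and heights moved with the window and the strictness of the peaks, while the count of AP-1 genes with a peak moved less. That count does not set the genes apart, since 93.5% of all protein-coding genes had a peak within 50 kb. The number of peaks, 52 as reported, was 21 within 10 kb, 31 within 20 kb and 94 within 100 kb. It was 23 with a fold over control of at least 20, 5 with a lower limit of the ratio above 10 and 31 with peaks given to the nearest gene only. The number of genes with a peak stayed at 10 except for 9 with the nearest gene only (Fosl1 lost its peaks) and 5 with the lower limit above 10. Within 10 kb the share of all protein-coding genes was 74.5%. Shares of all genes are not given here for the other settings. The median highest tag count, 32.6 as reported, was 13 within 10 kb, 16 within 20 kb and 76.7 within 100 kb, against 13.7, 19.6 and 51.5 over all genes. With genes that lost all their peaks counted as 0, it was 13.3 with the lower limit above 10, where 5 of the 10 genes are at 0, and 21.1 with the nearest gene only, where Fosl1 is at 0; the medians over all genes were not computed for these settings. The median ratio to control was 16.3 with equal totals and 17.7 with 0 control tags as 0.5. In the authors' deposited table, which counts 0 as 0.5, the median over all peaks was 24.2, so the order against all peaks, 13.7 to 12.4 with the floor, turns. Counting any overlap with the window left the number of peaks, the number of genes and the median height as they were. In the central 100 bp of promoters, TGCTGAC still matched at Jdp2, while TGACATCA was lost at Jun and TGACGT at Atf3, which left it in 3 genes. No paired analysis was possible because the list holds no value per library, and no replicate could be left out for the same reason. Depth limits the low peaks: at 1 control tag the ratio interval of each spans over 2 orders of magnitude.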

Other observations

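The motifs searched at AP-1 genes can be set against all deposited peaks whose central 100 bp lie wholly in a promoter window of the RefSeq table, 1546 in number. TGCTGAC, the MARE arm, stood in 111 of them (7.18%), beside 1.59% of the central 100 bp of all promoter windows. TGACNNNGC stood in 172 (11.1%, beside 4.20%) and TGAGTCA in 66 (4.27%, beside 1.96%), whereas TGACGTCA stood in 11 (0.712%, beside 0.642%). The run GCTGACTCAGC, seen in the peak upstream of Jdp2, stood in 7 (0.453%, beside 0.0183%), and the median tag count of those 7 peaks was 76, against 10.3 for the others. That run was chosen after its sequence was seen. These shares are descriptions and were not tested. Windows with peaks were not matched on base composition. Position was not matched either, since peak stretches lay anywhere in a window and the compared stretches were always its central 100 bp.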
